A study of Mus musculus with 4 samples.

Results

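The xenobiotic-metabolizing enzymes described here are the mouse genes of the cytochrome P450 families Cyp1, Cyp2 and Cyp3a, the UDP-glucuronosyltransferases Ugt1a, Ugt2a and Ugt2b, the alpha, mu and pi class glutathione S-transferases (Gsta, Gstm and Gstp) and the cytosolic sulfotransferases Sult1. They were chosen by the first letters of the gene symbol, with pseudogenes left out, and no measured value is part of the rule. The rule found 87 genes, measured by 119 probes, among the 32575 genes and identifiers on the array. These were 3 *Cyp1*, 44 *Cyp2*, 8 *Cyp3a*, 3 *Ugt1a*, 9 *Ugt2*, 4 *Gsta*, 7 *Gstm*, 3 *Gstp* and 6 *Sult1* genes. Of the 99 coding genes of these families in the RefSeq annotation, 12 had no matched probe and were not analysed here.

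Spinal cord and duodenum came from male mice aged 20 weeks, which were either WT littermates or *IP6K2*-/- mice that lack, in every tissue, the exon coding for the kinase domain of inositol hexakisphosphate kinase 2, the enzyme that makes the inositol pyrophosphate IP7. All 4 groups had been kept on the plant-based diet CE-2, then ate iVid-neo, a purified diet, for 1 week, and went without food for 48 h before the organs were taken. Each genotype and tissue was hybridized to 1 single-colour mouse array, 4 arrays in all, so no difference has a replicate check, no test was made, and the spread between mice is unknown. The *Ip6k2* probe was higher on the spinal cord array labelled *IP6K2*-/- (0.44) than on the WT array (−1.003), and where it binds the transcript is not given. Spinal cord genotypes are therefore given as labelled, and duodenum genotypes are taken from the labels as well. RNA was extracted from whole organ pieces, and in such bulk samples fewer cells of a type and less RNA per cell cannot be told apart.

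Phase I enzymes, chiefly the microsomal P450s, add or uncover a reactive group on drugs, plant compounds, steroids and fatty acids, using electrons from NADPH. Phase II enzymes then attach glucuronic acid, glutathione or sulfate, which makes the product water soluble and ready for export. The villus enterocytes of the proximal small intestine carry both sets and meet ingested compounds before the liver does. Several of the genes are induced through the receptors AHR, PXR (*Nr1i2*) and CAR (*Nr1i3*) or through NRF2 (*Nfe2l2*), while in the nervous system many family members are low and a few conjugating enzymes are abundant.

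A level below is log2 of the processed spot signal, an intensity after background subtraction, minus the 75th percentile of the array. A difference is *IP6K2*-/- minus WT in these log2 units, so 1 is 2-fold. Levels of different genes are not compared, since each probe binds with its own strength. The 75th percentile of the signal was 905.1 and 971.2 on the WT and *IP6K2*-/- spinal cord arrays but 68.0 and 322.8 on the WT and *IP6K2*-/- duodenum arrays, and 51.6% to 77.4% of probes were well above background, fewest on the WT duodenum array. No spot was saturated. The technical SD beside a difference was estimated from 399 probes with 10 spots per array and covers spots, not mice. A gene detected on 1 array of a pair has a lower bound in place of a difference ("at least"). Close relatives within a subfamily can bind the same probe, and *Ugt1a* genes share their last exons, so values of single members of such clusters are uncertain.

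The genes whose values recur below include neighbours in tandem clusters, and upstream sequences of some of them are shown. *Cyp2c65* and *Cyp2c66* lie next to each other on chromosome 19, and *Cyp2j6* and *Cyp2j8* next to each other on chromosome 4. *Gsta3* is shown because it holds an NRF2-type motif and differed in opposite directions in the tissues. *Cyp2b10* is shown because it had the largest difference in the spinal cord. The 250 bases upstream of each start site, from RefSeq on GRCm38.p6, read 5′ to 3′ on the coding strand, with capitals for matches to the AHR core GCGTG or the NRF2 site TGACNNNGC on either strand.
Cyp2c65 (chr19:39060756-39061005, plus strand): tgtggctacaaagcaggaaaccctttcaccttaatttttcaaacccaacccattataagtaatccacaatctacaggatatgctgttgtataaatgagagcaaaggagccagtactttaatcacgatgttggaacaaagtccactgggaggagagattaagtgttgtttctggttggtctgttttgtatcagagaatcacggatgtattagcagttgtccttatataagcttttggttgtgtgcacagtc
Cyp2c66 (chr19:39113648-39113897, plus strand): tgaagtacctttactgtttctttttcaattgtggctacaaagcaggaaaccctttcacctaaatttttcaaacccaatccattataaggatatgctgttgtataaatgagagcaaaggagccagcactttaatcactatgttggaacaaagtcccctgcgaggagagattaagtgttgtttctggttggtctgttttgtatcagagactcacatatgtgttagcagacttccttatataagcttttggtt
Cyp2j6 (chr4:96553652-96553901, minus strand): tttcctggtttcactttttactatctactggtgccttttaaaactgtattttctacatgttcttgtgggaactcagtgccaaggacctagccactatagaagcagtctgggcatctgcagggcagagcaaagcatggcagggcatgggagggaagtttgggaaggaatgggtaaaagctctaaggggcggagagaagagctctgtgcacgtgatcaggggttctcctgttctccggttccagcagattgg
Cyp2j8 (chr4:96507398-96507647, minus strand): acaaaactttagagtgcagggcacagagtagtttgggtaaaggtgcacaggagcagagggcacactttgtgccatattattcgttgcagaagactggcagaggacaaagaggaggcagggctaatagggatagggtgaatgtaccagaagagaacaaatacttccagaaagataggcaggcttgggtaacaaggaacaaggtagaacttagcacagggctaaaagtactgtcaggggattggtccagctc
Gsta3 (chr1:21240335-21240584, plus strand): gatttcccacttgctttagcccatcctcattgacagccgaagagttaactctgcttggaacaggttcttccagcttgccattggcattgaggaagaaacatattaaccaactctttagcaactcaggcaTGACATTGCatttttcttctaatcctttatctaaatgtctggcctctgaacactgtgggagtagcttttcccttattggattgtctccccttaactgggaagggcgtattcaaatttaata
Cyp2b10 (chr7:25897408-25897657, plus strand): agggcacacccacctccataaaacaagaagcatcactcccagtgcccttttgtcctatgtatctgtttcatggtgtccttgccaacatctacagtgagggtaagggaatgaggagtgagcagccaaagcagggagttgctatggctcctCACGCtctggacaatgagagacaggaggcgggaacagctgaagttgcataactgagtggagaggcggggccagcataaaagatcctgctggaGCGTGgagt

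In a global alignment, the *Cyp2c65* and *Cyp2c66* sequences were 74.6% identical and the *Cyp2j6* and *Cyp2j8* sequences 51.2% identical. No unrelated sequences were aligned, so these values have no baseline. None of these 4 sequences held either motif. *Gsta3* held 1 NRF2-type match, TGACATTGC, and *Cyp2b10* 2 matches to the AHR core. Promoter sequences were found for 78 of the 87 genes, some with more than 1 start site. The AHR core occurred in 28.2% of all 32851 promoters of this length and in 17 of the 87 promoters of these enzymes (19.5%). The NRF2 site occurred in 10.2% of all promoters and in 3 of the 87 (3.45%), those of *Gsta3*, *Gstm5* and *Gstm7*. In *Gstm5* an AHR core lay within the NRF2 match. A match is a description of the letters and not a bound site.

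The enzymes were measured mainly in the duodenum. Of the 87, 64 were well above background on both duodenum arrays and 45 on both spinal cord arrays. Of all 32575 genes these were 16812 and 24165. Of the enzymes, 39 were well above background on all 4 arrays and 12 on none. On the WT arrays, 58 of the 72 measured in either tissue were at least 2-fold higher in duodenum (30.2% of all genes) and 3 at least 2-fold lower (23.1% of all genes). On the *IP6K2*-/- arrays, 61 of 73 were higher (30.3% of all genes) and 2 lower (25.4%). In both genotypes alike, 54 of 70 genes (77.1%) were higher in duodenum, against 24.6% of 24851 genes, and 2 (2.86%) were lower, against 18.3%. The median difference of the genes well above background in both tissues was 3.70 in WT, where all such genes had 0.63, and 3.44 in *IP6K2*-/-, where all had 0.30.

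Ranked by the smaller of the values in the 2 genotypes, bounds included, *Gsta1*, an alpha class glutathione transferase, had the largest excess in duodenum. Its level was −7.08 and −7.64 on the WT and *IP6K2*-/- spinal cord arrays and 5.92 and 6.54 on the duodenum arrays, so it was 13.0 higher in WT and at least 14.2 higher in *IP6K2*-/-. The sulfotransferase *Sult1b1*, which acts on phenols and thyroid hormones, was at least 13.2 and 12.8 higher. *Ugt2b34* was at least 12.2 and 12.5 higher, *Cyp2d26* 12.4 and 12 higher, and *Cyp3a16* at least 12.1 and 11.9 higher. On the spinal cord arrays *Sult1b1*, *Ugt2b34* and *Cyp3a16* were not well above background, *Gsta1* was above it in WT alone, and *Cyp2d26* was well above it on both.

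Only *Gstm5*, a mu class transferase best known from brain and testis, and *Cyp2j9*, a P450 of fatty acids expressed in brain, were at least 2-fold higher in spinal cord in both genotypes. *Gstm5* stood at 3.65 and 3.72 in spinal cord and at 0.86 and 0.69 in duodenum, differences of −2.79 in WT and −3.02 in *IP6K2*-/-. *Cyp2j9* stood at 2.102 and 2.22 in spinal cord and −0.23 and 0.68 in duodenum, differences of −2.33 and −1.54. The phenol sulfotransferase *Sult1a1* was lower in duodenum by 1.92 in WT and by 0.41 in *IP6K2*-/-. *Gstm7* differed by −0.40 and −0.14. The 7 *Gstm* genes were the one family with every member well above background on all 4 arrays. For *Gstm3* this rests on the probe with the higher mean over the arrays. Its second probe was well above background in duodenum only, with signals of 1810 and 8139, against 3.11 and 3.05 in spinal cord. These tissue differences rest on scaling by each array's own 75th percentile, which was 905.1 in WT spinal cord and 68.0 in WT duodenum. Before scaling, some genes counted as higher in duodenum had lower signals there. *Gstp1* had 7203.5 and 7664.8 in WT and *IP6K2*-/- spinal cord and 2368.6 and 6862.2 in duodenum. *Sult1b1*, by contrast, had 0.95 on both spinal cord arrays and 3070 and 10164 in duodenum. The tissue comparison was not scaled on spiked-in control probes. With lowess, 51 enzymes were higher and 3 lower in WT duodenum, against 5306 and 8127 of all genes, and the deposited table gave 56 higher and 4 lower, against 6658 and 9484.

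**Figure D1:**
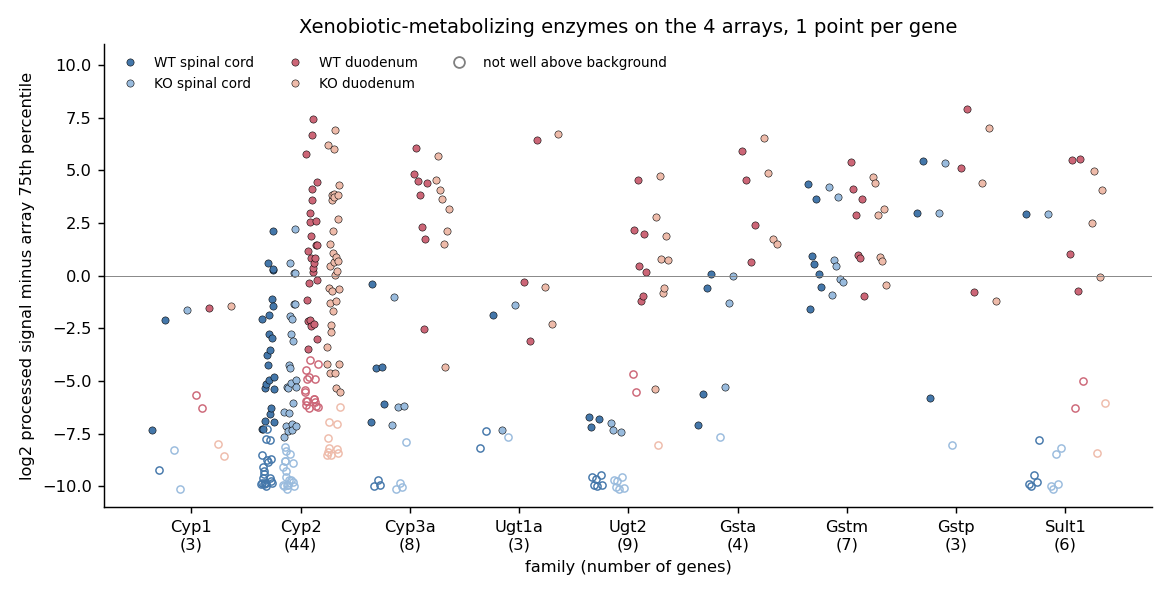
Levels of the 87 enzymes by family on the 4 arrays, in log2 of the processed signal minus the 75th percentile of the array; filled points were well above background and open points were not. The duodenum points of most families stand above the spinal cord points, while *Gstm* genes are filled on all 4 arrays.

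In the duodenum, 10 of the 72 measured enzymes were at least 2-fold higher on the *IP6K2*-/- array (13.9%) and 6 at least 2-fold lower (8.33%), against 7.2% and 11.9% of all 21429 genes measured there. The other 56 differed by less than 2-fold or had a smaller bound. The median difference of the 64 enzymes measured on both arrays was 0.21, and that of all 16812 such genes −0.11. With lowess 13 enzymes were higher and 4 lower (2510 and 1839 of all genes), the deposited table gave 14 and 4 (3280 and 1874), and under normexp background correction 9 and 4 (843 and 3061). The genes above 2-fold were mostly P450s of the 2C and 2J subfamilies, with *Gsta3* and *Sult1a1*, and those below were spread over *Cyp2*, *Cyp3a* and *Sult1*. All differences are relative to the 75th percentile of each array. With the arrays scaled on spiked-in control probes instead, every duodenal difference would be 3.01 higher and all 64 enzymes would stand above 0, so the direction of a gene is stated here against the bulk of genes and not as an amount of RNA.

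Signal that exceeded background on the *IP6K2*-/- array alone was found for 8 enzymes, of which *Cyp2c39* and *Cyp2c54* had a bound past 2-fold, *Cyp2a12* a bound of 0.58, and *Cyp2a4*, *Cyp2d40*, *Cyp2f2*, *Cyp2w1* and *Ugt2a1* no fold at all. The WT array alone detected none. Of all 32575 genes, 4546 exceeded background on the *IP6K2*-/- array alone, 71 on the WT array alone and 11146 on neither. The 15 enzymes not well above background on either duodenum array were *Cyp1a1*, *Cyp1a2*, *Cyp2a22*, *Cyp2ab1*, *Cyp2b13*, *Cyp2b19*, *Cyp2b23*, *Cyp2c50*, *Cyp2g1*, *Cyp2j5*, *Cyp2j11*, *Cyp2u1*, *Ugt2b1*, *Sult1c1* and *Sult1e1*.

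The 2 duodenum arrays also differed in markers of other cells. All 6 blood markers were at least 2-fold lower on the *IP6K2*-/- array (median −3.39, summed level 10.6 in WT and 6.47 in *IP6K2*-/-). Of the 8 pancreatic acinar markers 6 were lower (median −1.74, summed level 13.8 and 12.1). Of the 7 measured gastric mucosa markers 4 were higher and none was 2-fold lower (median 1.01, summed level 7.15 and 8.49). The higher ones were *Gkn2* (4.63), *Tff1* (3.79), *Muc5ac* (3.29) and *Gkn3* (1.01). *Pgc* differed by −0.33, and *Gkn1* and *Atp4a* gave no fold. *Atp4b* was too dim to be measured in this tissue. Of the 10 enterocyte markers, all well above background on both arrays, 1 was lower (*Fabp2*, −1.81) and none was higher (median −0.0038, summed level 11.4 and 10.7). Of the 8 hepatocyte markers on the array 6 were measured, with 1 lower and a median of 0. The acinar markers were bright, at WT levels from 9.47 (*Pnlip*) to 11.6 (*Cela3b*). Genes with a mean level of at least 3 had a median difference of −0.39 as a whole. Neither the part of brightness in these marker differences nor the share of the cell mixtures in the enzyme values was tested.

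**Figure D2:**
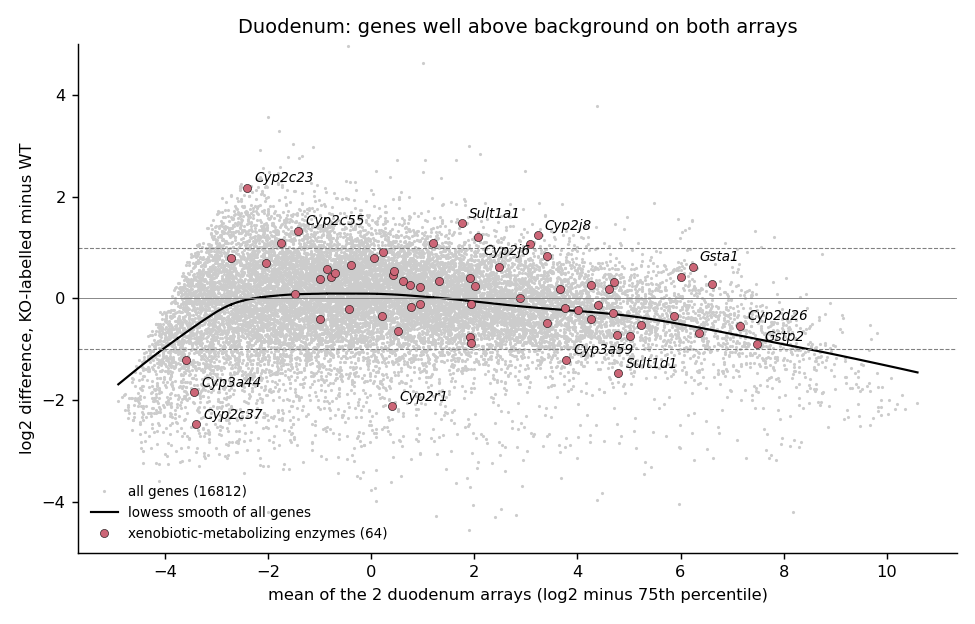
Difference between the *IP6K2*-/- and the WT duodenum array (log2) against the mean level of the 2 arrays for the 16812 genes well above background on both, with the 64 enzymes in red, a lowess smooth of all genes as the black line and dashed lines at 2-fold. The smooth falls below 0 at both ends, and *Sult1a1*, *Cyp2j6* and *Cyp2j8* stand above it while *Cyp2r1* stands below it.

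The *Cyp2c* genes, whose products oxidize many drugs and also epoxidize arachidonic acid, held more genes 2-fold apart than any other subfamily. Of 13 members 12 were measured, 5 were at least 2-fold higher (7.2% of all genes) and 1 lower (11.9% of all genes). Of the 10 measured on both arrays 9 were above 0, against 26.9% to 49.9% of all genes by brightness range, and 7 were above 0 under normexp. *Cyp2c65* (NM_028191), a 2C member of the intestine, had a level of 2.54 on the WT and 3.605 on the *IP6K2*-/- duodenum array, a difference of 1.07 (technical SD 0.069). Its neighbour *Cyp2c66* (NM_001011707), whose upstream sequence is shown above, had a level of 2.998 on the WT and 3.82 on the *IP6K2*-/- duodenum array, a difference of 0.83 (technical SD 0.068), which was 1.06 with quantile normalization within the tissue. Both genes were near or below detection in spinal cord. *Cyp2c55*, next to *Cyp2c65* on the chromosome, was dimmer, at −2.09 on the WT and −0.75 on the *IP6K2*-/- duodenum array, a difference of 1.33 that was 0.19 under normexp background correction. Signal of *Cyp2c39* and *Cyp2c54* was well above background on the *IP6K2*-/- duodenum array and on no other. They were at least 1.63 and 1.29 higher, bounds that were 0 under normexp. *Cyp2c54* had 3 probes, and only the one read here was well above background on any array. With the mean of its probes its bound was 0.

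*Cyp2c23* had the largest positive difference, 2.17 (technical SD 0.26), from a level of −3.49 to one of −1.32, but its signals were only 6.04 and 129 and the difference was −0.0081 under normexp. *Cyp2c37* was the one measured 2C gene below 0. Its level was −2.17 on the WT and −4.64 on the *IP6K2*-/- duodenum array, a difference of −2.47, while the signals before scaling were 15.1 and 13. The signals were thus close to each other, while the 75th percentiles by which they were scaled were 68.0 and 322.8. A second *Cyp2c37* probe, with signals of 2.10 and 12.9, was well above background only on the *IP6K2*-/- array and gave no bound. The probes of *Cyp2c38* went opposite ways, the brighter 0.79 and the dimmer −2.47. The remaining measured members, *Cyp2c29*, *Cyp2c67*, *Cyp2c68* and *Cyp2c70*, differed by 0.23 to 0.69.

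Of the 6 *Cyp2j* genes, epoxygenases of arachidonic acid and other fatty acids, 4 were measured. *Cyp2j6* (NM_010008), described in the intestine, stood at 1.47 on the WT and 2.68 on the *IP6K2*-/- duodenum array, a difference of 1.21 (technical SD 0.074), and its second probe differed by 2.26. *Cyp2j8* (NM_001104927) stood at 2.61 on the WT and 3.85 on the *IP6K2*-/- duodenum array, a difference of 1.24 (technical SD 0.069). *Cyp2j9*, on the other side of *Cyp2j6*, differed by 0.91 and *Cyp2j13* by −0.65, so 3 of the 4 were higher. On the spinal cord arrays the differences of the same genes were −0.23, −0.18, 0.12 and −0.12, all small. Related *Cyp2j* transcripts can share a probe, and the neighbours may not be separate measurements.

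Among the other *Cyp2* genes, *Cyp2r1* (NM_177382), the vitamin D hydroxylase that makes the circulating form of the vitamin, stood at 1.47 on the WT and −0.65 on the *IP6K2*-/- duodenum array, a difference of −2.12 (technical SD 0.078), and its second probe differed by −1.12. *Cyp2e1*, which oxidizes ethanol, acetone and small solvents, stood at −2.300 on the WT and −1.21 on the *IP6K2*-/- duodenum array, a difference of 1.095 that was −0.24 under normexp. *Cyp2t4*, a little studied P450, differed by −1.204, with signals of 8.53 and 17.6. *Cyp2b10*, the gene most used as a readout of CAR, was bright on both arrays, at 5.800 on the WT and 6.21 on the *IP6K2*-/- duodenum array, a difference of 0.42, and *Cyp2b9* differed by 0.57. Of the 8 *Cyp2d* genes, which oxidize many amine drugs, the 7 measured on both arrays differed by less than 2-fold, and the brightest, *Cyp2d26* and *Cyp2d11*, by −0.54 and −0.68. With quantile normalization within the tissue these were 0.19 and −0.18.

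The 8 *Cyp3a* genes, whose products oxidize a very wide range of drugs and steroids and are induced through PXR, were all well above background on both duodenum arrays. Their median difference was −0.38 and 7 of the 8 were below 0, but with quantile normalization within the tissue 4 were above and 4 below 0 (median −0.030), and under normexp 5 were above 0. *Cyp3a59* had a level of 4.38 on the WT and 3.17 on the *IP6K2*-/- duodenum array, a difference of −1.21 (technical SD 0.067), or −0.91 with quantile normalization within the tissue. *Cyp3a44* stood at −2.52 on the WT and −4.36 on the *IP6K2*-/- duodenum array, a difference of −1.85, with signals of 11.9 and 15.7. *Cyp3a11*, the member most used as a readout of PXR, stood at 4.83 on the WT and 4.54 on the *IP6K2*-/- duodenum array, a difference of −0.28, and its brighter duodenal probe differed by −0.97. *Cyp3a13* and *Cyp3a16* differed by −0.34 and −0.41, and the second *Cyp3a13* probe differed by 1.27, in the opposite direction. The other members, *Cyp3a25*, *Cyp3a41b* and *Cyp3a57*, differed by −0.198, −0.77 and 0.404.

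The *Cyp1* genes are the classical targets of AHR. *Cyp1a1* and *Cyp1a2* were not well above background on either duodenum array. *Cyp1b1*, which oxidizes oestrogens and polycyclic hydrocarbons, had a level of −1.52 on the WT and −1.43 on the *IP6K2*-/- duodenum array, a difference of 0.088 (technical SD 0.13), smaller than its technical SD.

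Of the 11 measured glucuronosyltransferases, none of the 10 measured on both arrays was 2-fold apart, and *Ugt2a1* gave no fold. Of the 8 measured *Ugt2* genes, which take steroids, bile acids and drugs, 6 were above 0 and 1 below, and of the 7 measured on both arrays 6 were above 0, or 5 with the mean of a gene's probes. *Ugt2a3* stood at 2.17 on the WT and 2.79 on the *IP6K2*-/- duodenum array, a difference of 0.62, *Ugt2b34* differed by 0.19 and *Ugt2b38* by −0.11. Among the *Ugt1a* genes the bright *Ugt1a6b*, a transferase of simple phenols, stood at 6.46 on the WT and 6.75 on the *IP6K2*-/- duodenum array, a difference of 0.29, *Ugt1a10* differed by −0.202, and *Ugt1a6a* by 0.803, or −0.93 under normexp.

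Glutathione transferases of different class went different ways. *Gsta3* (NM_001077353), an alpha class enzyme known for the conjugation of aflatoxin epoxide in mice, stood at 0.66 on the WT and 1.75 on the *IP6K2*-/- duodenum array, a difference of 1.09 (technical SD 0.084), and its second probe differed by 1.62. *Gsta1* and *Gsta2* differed by 0.62 and 0.31. *Gsta4*, which conjugates the lipid aldehyde hydroxynonenal, stood at 2.38 on the WT and 1.51 on the *IP6K2*-/- duodenum array, a difference of −0.88. The 3 *Gstp* genes were below 0 under each scaling and background correction tried except that on spiked-in probes, with *Gstp2* at −0.900, *Gstp1* at −0.71 and *Gstp3* at −0.400. For the bright *Gstp2* the difference was −0.073 with quantile normalization within the tissue. The 7 *Gstm* genes lay between −0.73 (*Gstm1*) and 0.49 (*Gstm7*), with *Gstm2* at 0.26 and *Gstm6* at −0.49.

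The sulfotransferases split. *Sult1a1* (NM_133670) had a level of 1.02 on the WT and 2.504 on the *IP6K2*-/- duodenum array, a difference of 1.48 (technical SD 0.081), and its second probe differed by 1.61. *Sult1d1* (NM_016771), which sulfates catecholamines and phenols, had a level of 5.53 on the WT and 4.06 on the *IP6K2*-/- duodenum array, a difference of −1.47 (technical SD 0.067), and its second probe differed by −0.90. *Sult1b1* and *Sult1c2* differed by −0.52 and 0.65. *Sult1c1* and *Sult1e1*, the oestrogen sulfotransferase, were not well above background on either array. *Sult1a1* lay between 1.43 and 1.59 under the 7 further settings, and *Sult1d1* between −1.45 and −0.81, under 2-fold in 4 of them.

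The differences also followed brightness. Bright genes as a whole were lower on the *IP6K2*-/- array: among the 3240 genes with a mean level of at least 3, the median difference was −0.39 and 26.9% were above 0, and the 25 enzymes in that range had a median of −0.23. Among the 23 enzymes with a mean level from 0 to 3 the median was 0.27, where all genes had −0.0026, and among the 16 dimmer ones it was 0.46, where all genes had −0.054. With the trend on brightness removed by lowess, the 3 medians were 0.36, 0.28 and 0.14 from dim to bright. Of the 10 enzymes at least 2-fold higher, 5 were so under each of 7 further scalings and background corrections (*Cyp2c65*, *Cyp2j6*, *Cyp2j8*, *Gsta3* and *Sult1a1*). Of the 6 at least 2-fold lower, 3 were so under each (*Cyp2c37*, *Cyp2r1* and *Cyp3a44*), of which *Cyp2r1* is not dim. These 7 leave out the scaling on spiked-in probes and the mean of a gene's probes, which was 0.74 for *Cyp2j8*.

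**Figure D3:**
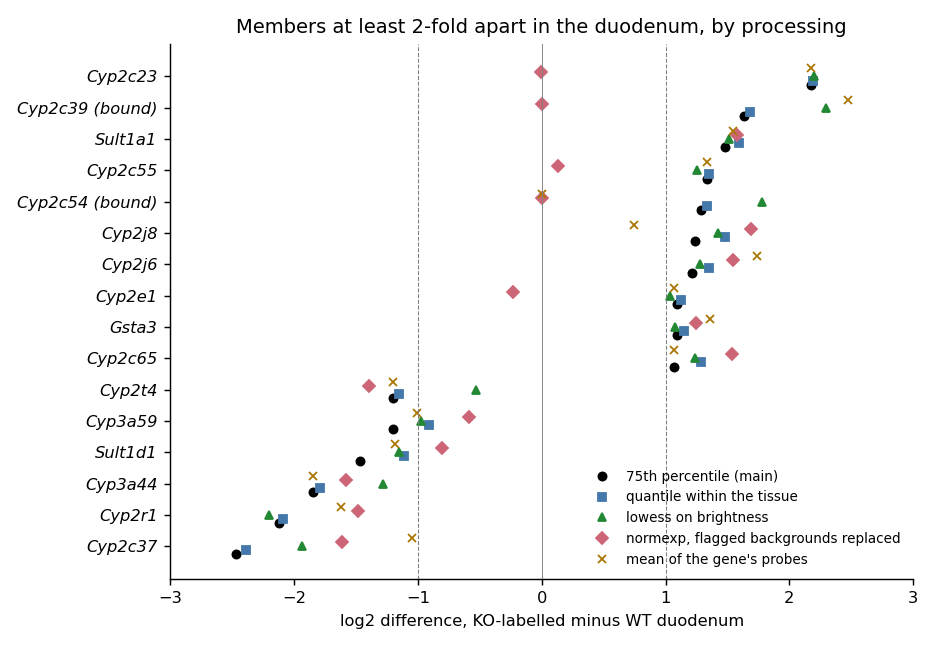
Differences in the duodenum (log2, *IP6K2*-/- minus WT) of the 16 enzymes at least 2-fold apart, computed in 5 ways shown by the symbols; dashed lines mark 2-fold and bounds are named as such. The points of *Sult1a1*, *Gsta3* and *Cyp2c65* lie together beyond 2-fold, while the normexp points of *Cyp2c23*, *Cyp2c39*, *Cyp2c54*, *Cyp2c55* and *Cyp2e1* lie near 0.

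The other genes of the pathway were read from lists that the rule did not use. Their values are given under the main scaling only. Of the 5 electron transfer partners, *Cyb5r3*, the reductase of cytochrome b5, was 1.25 higher in the *IP6K2*-/- duodenum. *Por*, which passes electrons from NADPH to microsomal P450s, differed by −1.002. It was bright, at 6.67 on the WT array, in the range where genes as a whole were lower. Of the 12 receptors and regulators, none of the 11 measured on both arrays was 2-fold apart, and *Ahrr* gave no fold. *Nr1i3* differed by 0.58, *Nr1i2* by 0.57, *Ahr* by −0.60 and *Keap1* by −0.56. None of the 11 measured targets of AHR and NRF2 outside the enzyme families was 2-fold apart either, and the largest were *Me1* (0.80) and *Nqo1* (0.64).

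Of 35 measured enzymes of other conjugating and detoxifying families, 7 were higher and 2 lower, against 7.2% and 11.9% of all genes. The largest were the carboxylesterases *Ces3a* (at least 1.96) and *Ces1g* (1.91) and the flavin monooxygenases *Fmo4* (1.54) and *Fmo1* (at least 1.5). The lower ones were *Sult2b1* (−1.30), a sulfotransferase of cholesterol and other sterols, and *Mgst3* (−1.001). Both were bright, at WT levels of 6.40 and 6.49, in the range where genes as a whole were lower. Among the 8 genes of cofactor supply, *Slc35d1*, which carries UDP-glucuronic acid into the endoplasmic reticulum, was 2.51 lower on the log2 scale, and the other 7 were less than 2-fold apart. Of the 10 measured transporters the efflux pump *Abcc1* was 1.21 higher, and *Abcb1a* (0.40), *Abcb1b* (−0.87) and *Abcc3* (−0.64) were within 2-fold.

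In the spinal cord, 1 of the 54 measured enzymes was at least 2-fold higher on the array labelled *IP6K2*-/- (1.85%) and 5 were at least 2-fold lower (9.26%), against 2.28% and 0.865% of all 25216 genes measured there. Under normexp 0 enzymes were higher and 27 lower (85 and 9654 of all genes), and with flagged local backgrounds replaced 0 and 1 (173 and 19 of all genes). By the first count the other 48 differed by less than 2-fold or had a smaller bound. The median difference of the 45 enzymes measured on both arrays was −0.12, and that of all genes −0.038. The 5 lower ones were *Cyp2b10*, *Cyp3a25*, *Cyp3a57*, *Cyp3a59* and *Gstp3*, all of them dim in this tissue, and the higher one was *Cyp2e1*.

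*Cyp2b10* had the largest difference of all members. Its probe gave a signal of 219 on the WT and 11 on the other array, levels of −2.05 and −6.46, a difference of −4.41 (technical SD 0.18). It was at least 2-fold lower under each of the 7 further settings, between −4.44 and −2.16. In the duodenum the same probe was 0.42 higher on the *IP6K2*-/- array.

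Of the 8 *Cyp3a* genes 5 were measured and 3 were at least 2-fold lower (0.865% of all genes). *Cyp3a25* had signals of 43.6 and 12.7, a difference of −1.89 (technical SD 0.18), and *Cyp3a57* signals of 45.3 and 13.4, a difference of −1.86 (technical SD 0.17). *Cyp3a59* was well above background on the WT array alone and was lower by at least 1.75. These genes belong to 1 cluster on chromosome 5, where *Cyp3a25* and *Cyp3a59* are neighbours, and their similar values may come from shared binding. The brighter *Cyp3a13* stood at −0.41 on the WT and −1.04 on the other spinal cord array, a difference of −0.62, and *Cyp3a11* was at −0.17 near the limit of detection. With normexp in which flagged local backgrounds were replaced, *Cyp3a25* and *Cyp3a57* were −0.66 and −0.75, under 2-fold. *Gstp3* had a bound of −2.002, with signals of 16 and 3.73, but the local background of its WT spot was flagged as an outlier by the scanner software and the bound was −0.34 under normexp with flagged backgrounds replaced.

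Some adipocyte markers were lower as well. Of the 8 markers 7 were measured in spinal cord and 4 were at least 2-fold lower on the array labelled *IP6K2*-/- (median −1.02, summed level 2.68 on the WT array and 1.79 on the other). *Ucp1*, the uncoupling protein of brown fat, had a signal of 404.4 on the WT array and 13.4 on the other, a difference of −5.02, *Fabp4* differed by −1.14, *Cidea* by −1.11 and *Adipoq* by −1.02, whereas *Cfd* was 0.92 higher and *Lep* was not well above background. Over all genes, 2.28% were at least 2-fold higher and 0.865% at least 2-fold lower. Other lists differed the opposite way. Among them, 3 of 6 markers of crypt and cycling epithelium (median 0.76) and 2 of 7 smooth muscle markers (median 0.072) were at least 2-fold higher. All 7 skeletal muscle markers were higher on the array labelled *IP6K2*-/- (median 4.02, summed level 1.33 and 5.42), as were 5 of 8 Schwann cell markers (median 1.64, summed level 3.53 and 5.35), 5 of 8 markers of fibroblasts and meninges (median 1.11, summed level 2.86 and 4.003) and 4 of 6 blood markers (median 1.18, summed level 7.83 and 8.46). Of the 7 neuron, 7 astrocyte and 7 oligodendrocyte markers none was 2-fold apart, with medians of −0.061, −0.12 and 0.17. Of the hepatocyte markers 4 were measured and 1 was lower (median −0.083), of the enterocyte markers 7 were measured and none passed 2-fold (median −0.016), and of the gastric mucosa markers 5 were measured and 2 were lower (median −0.26). The part of these cells in the enzyme values was not tested.

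**Figure D4:**
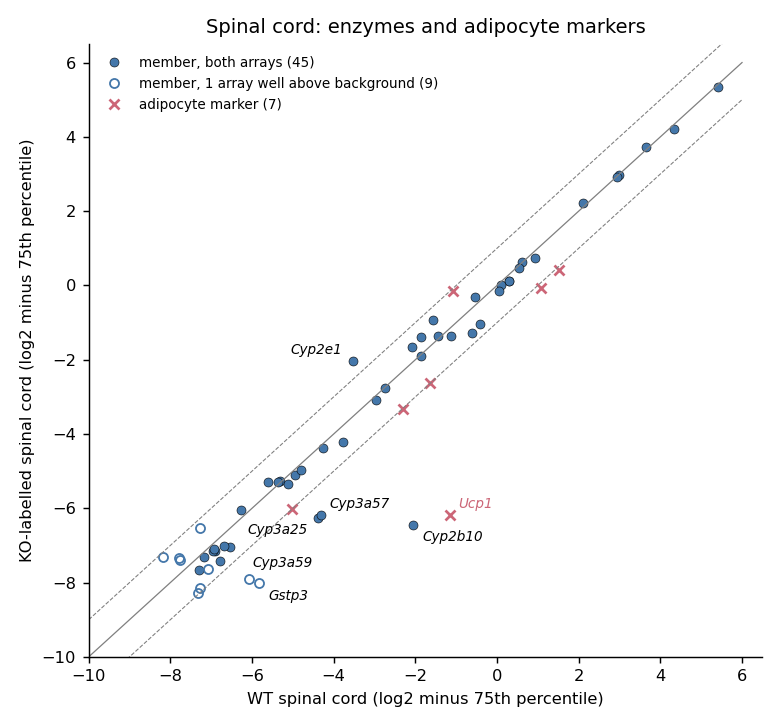
Levels on the WT spinal cord array (horizontal) and on the array labelled *IP6K2*-/- (vertical), in log2 minus the 75th percentile, for the 54 measured enzymes in blue (open where only 1 array was well above background) and 7 adipocyte markers as red crosses; the solid line marks equal levels and dashed lines 2-fold. *Cyp2b10* and the marker *Ucp1* lie far below the line, and the brighter enzymes lie on it.

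*Cyp2e1* stood at −3.53 on the WT and −2.05 on the other spinal cord array, a difference of 1.49 (technical SD 0.083). Its second probe differed by 0.99. Normexp gave −0.56, and 0.95 once flagged backgrounds were replaced. The direction of *Cyp2e1* in this tissue depended on the background correction.

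*Gstp2* and *Gstp1* stood at 5.42 and 2.99 in WT and differed by −0.078 and −0.012, *Gstm1* stood at 4.33 and differed by −0.11, and *Gstm5* stood at 3.65 and differed by 0.064. *Sult1a1* had a level of 2.94 on the WT and 2.92 on the other spinal cord array, a difference of −0.024, whereas it was 1.48 in the duodenum. The P450s *Cyp2j9* (0.12), *Cyp2d11* (0.013) and *Cyp2s1* (−0.19) also differed little in spinal cord. In the duodenum they differed by 0.91, −0.68 and −0.13. Among genes measured on both arrays, the largest differences under 2-fold were those of *Gsta3* (−0.69), *Gstm2* (0.65), *Ugt2b37* (−0.64), *Cyp3a13* (−0.62), *Cyp2d40* (−0.503) and *Ugt1a6b* (0.49), and *Cyp1b1* differed by 0.45. Of the *Ugt2* genes 3 were measured, *Ugt2a1* (−0.32), *Ugt2a3* (−0.14) and *Ugt2b37*, all dim. Of the 87 enzymes 33 were not well above background on either spinal cord array. A further 4 were above it on the array labelled *IP6K2*-/- alone and 5 on the WT array alone. Of all 32575 genes these were 7359, 619 and 432.

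*Gsta3* was among the members measured well in both tissues. Its signal was 595 and 397 on the WT and the other spinal cord array and 107 and 1085 on the WT and the other duodenum array. It was thus lower by 0.69 on the log2 scale in spinal cord and higher by 1.09 in duodenum on the arrays labelled *IP6K2*-/-, and its second probe gave −0.69 and 1.62.

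In the spinal cord, none of the 5 electron transfer partners, 10 measured receptors and regulators, 8 genes of cofactor supply and 9 measured transporters was 2-fold apart, with *Por* at −0.12, *Nfe2l2* at 0.51 and *Nr1h4*, the bile acid receptor, at −0.65. Of the 12 targets of AHR and NRF2, *Slc7a11*, the cystine transporter, was 1.09 higher (2.28% of all genes past 2-fold). It was dim, with signals of 7.5 on the WT and 17.1 on the other array. Of 31 measured enzymes of other families, *Sult5a1* was 1.86 higher (2.28% of all genes past 2-fold). The carboxylesterase *Ces1d* was 1.33 lower on the log2 scale (0.865% of all genes past 2-fold). Both were dim as well, with signals of 13.5 and 52.5 for *Sult5a1* and 20.2 and 8.64 for *Ces1d*.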

How the data were processed

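RNA of 4 mouse samples was hybridized to 1-colour Agilent arrays, 1 per genotype and tissue. The authors deposited the scanner output of Agilent Feature Extraction (11.5.1.1), whose processed signal is a background-subtracted, spatially detrended intensity, together with a table of log2 values of unstated normalization, used as an alternative only. Here the 75th percentile of log2 processed signal was subtracted per array (Python 3.11.15, pandas 2.3.3), control spots were left out, and a gene was read from its brightest probe (mean of the 4 arrays). RefSeq accessions were matched to symbols of GRCm38.p6 (25868 of 26391 probes with an mRNA accession). The array design was annotated on mm9, so no gene coordinates are given beyond the promoter table's. Tandem genes were ordered by GRCm38.p6. A gene was measured if well above background on at least 1 of the arrays compared. No statistical test was made, since each group has 1 array. For a bound, the value not well above background was replaced by the lowest one that was, on that array, unless its own value was higher, and a bound that gave no fold was entered as 0.

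In each tissue the 10 largest differences, bounds of at least 2-fold, the 3 brightest genes per family, members with probes going opposite ways past 2-fold and members differing in opposite directions were named, and for tissues the 5 largest each way. Remaining members named are given as values. The members and lists were chosen with earlier results of these data known. Normexp used limma 3.58.1 (R 4.3.3, offset 50). Other alternatives were quantile, median, lowess (fraction 0.3) and spiked-in scaling, the mean of all probes of a gene, the deposited table, a 1.5-fold threshold and other filters. The programs were checked on simulated data. The number of arrays limits precision.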

Additional observations from a re-analysis of the deposited data

Results flagged for a closer look

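*Gsta3* differed in opposite directions in the 2 tissues. On the arrays labelled *IP6K2*-/- it was 1.09 higher in duodenum and lower by 0.69 on the log2 scale in spinal cord, so the tissues differed by 1.78. It drew attention because the single arrays of the tissues moved opposite ways. The difference between the tissues was not tested.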

How the results depend on the processing

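In the duodenum, the median difference of the measured enzymes was 0.18 and became 0.26 with quantile normalization of the 4 arrays, 0.28 with quantile normalization within a tissue, 0.36 in the deposited table and −0.10 without a filter on dim probes, which raised the number of lower enzymes from 6 to 21. At 1.5-fold, 18 enzymes were higher and 13 lower. Over all genes, 1543 were higher and 2550 lower, against 2461 and 12536 without the filter, 3646 and 4832 at 1.5-fold, 843 and 3061 under normexp, 3280 and 1874 in the deposited table and 2510 and 1839 with lowess. Scaling on spiked-in probes moved the median difference of all genes from −0.11 to 2.89 in the duodenum and from −0.038 to −0.21 in the spinal cord. *Cyp2c23* reversed to −0.0081 under normexp and −0.0074 with flagged backgrounds replaced.

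In the spinal cord, normexp gave a median of −0.89, with 0 enzymes higher and 27 lower, and over all genes 85 higher and 9654 lower. With flagged backgrounds replaced it gave 0 higher and 1 lower, and over all genes 173 higher and 19 lower. *Cyp2e1* reversed to −0.56 under normexp. At 1.5-fold 3 enzymes were higher and 8 lower, without a filter 3 were higher, and with both arrays required 3 were lower. Over all genes, 576 were higher and 218 lower, against 1318 and 808 at 1.5-fold and 464 and 128 with both arrays required, and lower calls were 875 without a filter, 144 with quantile normalization of the 4 arrays, 142 in the deposited table and 329 with the mean of probes.

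Between tissues, the median of the measured enzymes was 5.001 in WT and 5.40 in *IP6K2*-/-. In WT it was 4.91 with quantile normalization, 5.22 with median centring, 3.51 with lowess, 1.72 with normexp, 3.38 with flagged backgrounds replaced, 4.90 in the deposited table, 5.66 with the mean of probes, 3.70 with both arrays required (36 higher) and 4.35 without a filter. In *IP6K2*-/- it was, in the same order, 5.14, 5.67, 5.05, 3.69, 3.67, 5.14, 5.85, 3.44 (37 higher) and 4.59. Over all genes, 7617 were higher and 5815 lower in WT duodenum, against 4611 and 2867 under normexp, 7816 and 3341 with flagged backgrounds replaced, 6658 and 9484 in the deposited table, 6996 and 3531 with both arrays required and 16460 and 7411 without a filter. In *IP6K2*-/- 7796 were higher and 6525 lower, against 8534 and 3737, 8533 and 3736 with flagged backgrounds replaced, and 12908 and 7653 without a filter.

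Of the values of named members under the alternatives, 264 moved by less than a technical SD and 221 by more, and 3 values of members at least 2-fold apart changed sign. Counting smaller differences too, 11 of the 35 named members in the duodenum and 10 of 26 in the spinal cord changed sign under at least 1 alternative. These counts cover the members named by rule. *Cyp2e1* in the duodenum, outside the 35, also changed sign, from 1.095 to −0.24 under normexp with and without replaced backgrounds. The cause was not tested. No paired analysis was possible because each group has 1 array. Leaving out a replicate was not possible for the same reason. Dim probes limit what can be said most on the WT duodenum array, where 51.6% of probes were well above background.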
